A study of Homo sapiens with 6 samples.

Results

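AT-AC introns, which begin with the dinucleotide AT and end with AC, were described in K562 cells with wild-type or mutant U2AF1. They were taken as every annotated junction whose motif code in the splice junction tables marks AT/AC or its reverse complement GT/AT, listed in at least 1 of the 6 tables. The rule gave 260 AT-AC introns out of 242682 annotated junctions, or out of 780566 junctions of any kind. Annotated GT-AG introns, 237090 in number, served as the comparison.

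K562 is a human line derived from chronic myeloid leukaemia. In all, 3 libraries came from K562 cells with a U2AF1 wild type knock-in (WT) and 3 from K562 cells carrying U2AF1 S34F, a serine-to-phenylalanine substitution in a zinc finger of U2AF1 that recurs in myeloid neoplasms. Libraries were prepared from polyadenylated RNA with the TruSeq kit and read as paired ends. The labels do not say whether the replicates were separate cultures or clones, or how many clones each genotype stands for, so p-values measure the spread between these libraries, which may be technical.

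Most introns begin with GT, end with AG and are removed by the major spliceosome, in which U1 and U2 recognise the donor and the branch point and the U2AF1 subunit binds the AG of the acceptor. A small class is removed by the minor spliceosome, in which U11 and U12 take those places and the U2AF1 relative ZRSR2 acts at the acceptor. AT-AC introns belong for the most part to this class, although many minor introns have GT and AG ends and a few AT-AC introns are removed by the major spliceosome. The tables give only the end dinucleotides of an intron, and the donor and branch point sequences that tell these classes apart were not analysed here. Introns are therefore identified by hg19 position, with the first and last intron base, and their host genes are not named.

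The libraries held between 18074706 and 39279169 uniquely mapped junction reads, with the fewest in S34F replicate 2 and the most in S34F replicate 3. Of the 260 AT-AC introns, 242 had at least 1 uniquely mapped read and 158 had reads in every library. The remaining 18 had none and were listed through multi-mapped reads alone. The median AT-AC intron had 102.5 reads over the 6 libraries, against 45 for the median annotated GT-AG intron. AT-AC introns lay on 24 chromosomes, with 124 on the plus strand and 136 on the minus strand, and had a median length of 1370.5 nt against 1688 nt for GT-AG introns. The longest spanned 73635 nt, and 5 annotated AT-AC junctions were shorter than 70 nt and had between 1 and 33 reads. Among reads on AT-AC introns, 3.35% to 4.04% in each library were multi-mapped, against 6.10% to 7.69% on GT-AG introns.

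The first comparison asked whether AT-AC introns as a class held a different share of spliced reads in S34F cells. Per 1000000 annotated junction reads they held 849, 923 and 926 in the WT libraries and 884, 812 and 967 in the S34F libraries. The groups overlapped, with the lowest and the highest value both in S34F. The mean was 900 ± 43.7 (SD, n = 3) in WT and 887 ± 77.4 (SD, n = 3) in S34F, a difference of -12.0 that is smaller than either SD. The sign of that difference turned when 1 library was left out: it was 1.21 without WT replicate 3 and 25.7 without S34F replicate 2. The number of AT-AC introns with a read was between 184 and 195 in WT and between 197 and 205 in S34F. S34F replicate 3, the deepest library, had 205, and S34F replicate 2, the shallowest, had 197. The same count was not made for GT-AG introns or for all junctions. Whether it is particular to AT-AC introns, or follows depth, was not tested.

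**Figure D1:**
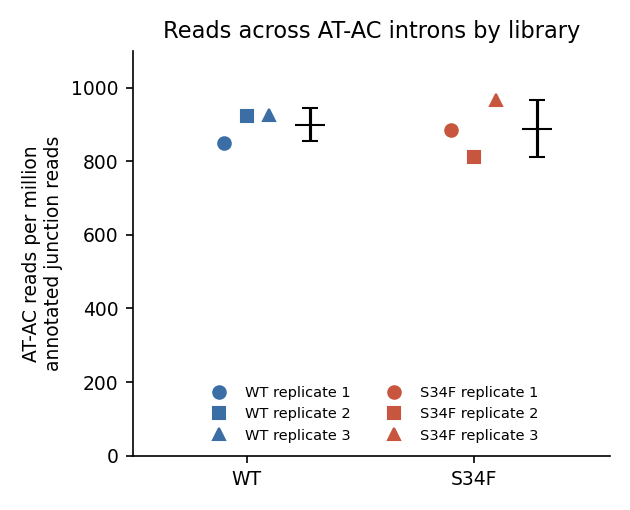
Reads on AT-AC introns per 1000000 annotated junction reads, by library (points), with the mean and SD of each group of 3 libraries. The S34F libraries, from 812 to 967, lie on both sides of the WT libraries, from 849 to 926.

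A few introns carried much of the class. The 10 most-read AT-AC introns held 40.4% of the 134257 AT-AC reads, whereas the 10 most-read GT-AG introns held 2.85% of GT-AG reads. The most-read AT-AC intron, chr12:7076412-7076838 on the minus strand (427 nt), had 57.6, 81.9 and 84.6 RPM (reads per 1000000 uniquely mapped junction reads) in WT and 65.0, 55.2 and 80.3 in S34F. Its groups overlapped, and its log2 change between S34F and WT was -0.18 ± 0.19 (SE; edgeR adjusted p = 0.711).

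The next in rank, chr11:61068405-61069728 on the minus strand, had 39.3, 45.5 and 37.0 RPM in WT and 53.1, 41.3 and 64.3 in S34F. The S34F libraries were the higher ones apart from replicate 2, which lay inside the WT range. Its log2 change of 0.36 ± 0.17 (SE) did not pass the test (edgeR adjusted p = 0.384). Its upstream and downstream neighbour introns had log2 changes of 0.34 and 0.33.

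The intron chr13:98664597-98666295 on the plus strand had 19.2, 34.3 and 34.3 RPM in WT and 27.3, 16.2 and 27.1 in S34F. Its spread within each group was wider than the distance between them, and the log2 change was -0.34 ± 0.23 (SE; edgeR adjusted p = 0.561). The intron chr7:30661117-30661932 had a like spread, with 20.5, 29.7 and 30.3 RPM in WT and 30.9, 18.3 and 35.3 in S34F. In both introns the lowest libraries were WT replicate 1 and S34F replicate 2. The other 6 of the 10, at chr16:83842352-83842909, chr19:39334745-39336289, chrX:21996233-21996994, chr4:10084803-10086066, chr1:183602290-183604651 and chr16:66967970-66968125, had log2 changes between -0.16 and 0.26. None of the 10 had groups that did not overlap.

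**Figure D2:**
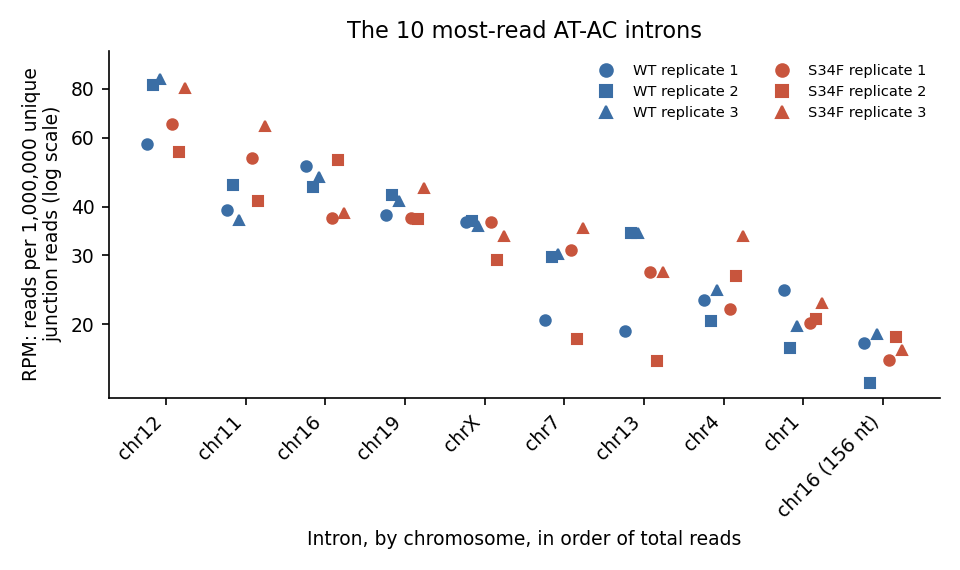
RPM (log scale) for the 10 most-read AT-AC introns, 1 point per library, named by chromosome. WT and S34F points overlap in every intron, and the chr12 intron is the highest in each library, between 55.2 and 84.6.

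The abundance of single AT-AC introns was tested next, with edgeR's quasi-likelihood test fitted on all annotated junctions that had at least 10 reads in at least 3 libraries. A junction was called at a Benjamini-Hochberg adjusted p under 0.05. Of the 260 AT-AC introns 142 passed the filter, and 0 were called. Of all 114172 junctions tested 224 were called, or 0.196%. At an unadjusted p under 0.05, 15 AT-AC introns passed, 8 higher and 7 lower in S34F, which is 10.6% of those tested against 13.6% of all junctions. The WT and S34F libraries did not overlap in 20 AT-AC introns, or 14.1%, against 17.6% of all junctions. DESeq2 called 1 AT-AC intron and 1.15% of all junctions on the same counts. With edgeR, 1 AT-AC intron was called without TMM scaling, or 0.704% of those tested against 0.348% of all junctions. Without S34F replicate 2 it was also 1 (0.709% against 0.534%). With no filter on low counts, 5 of 242 AT-AC introns were called, or 2.07% against 2.35% of all junctions.

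The changes were small on either side of 0. The median log2 change was -0.05 over the tested AT-AC introns and 0.01 over all tested junctions, and the median size of the change was 0.23 against 0.26. The interval of the log2 change ± 2 SE lay within ± 1, a doubling or halving, in 106 of the 142 introns (74.6%), and in 67.0% of all junctions. In bulk RNA of this kind, fewer cells that make a transcript and less of it per cell cannot be told apart.

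The lowest log2 change was that of chr14:50131393-50131824 on the minus strand (432 nt). It had 97, 116 and 105 reads in WT and 26, 43 and 70 in S34F, or 4.63 ± 0.80 (SD, n = 3) and 1.76 ± 0.64 (SD, n = 3) RPM. All 3 S34F libraries lay below all 3 WT libraries. The log2 change was -1.42 ± 0.29 (SE), with an edgeR adjusted p of 0.0666, and this was the intron that DESeq2 called (adjusted p = 0.00528). Over the other settings tried its adjusted p ran from 1.02e-05, with no filter on low counts, to 0.245, without WT replicate 3. The introns on either side of it had log2 changes of -1.38 and -1.47. Its ratio to the mean of these neighbours was 1.05 ± 0.17 in WT and 1.06 ± 0.11 in S34F (SD, n = 3), so the 3 neighbouring introns had lower read counts by about the same factor.

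The highest log2 change was that of chr19:18856771-18857862 on the plus strand (1092 nt), with 17, 9 and 16 reads in WT and 40, 25 and 75 in S34F. In RPM the groups did not overlap, at 0.618 ± 0.24 and 1.67 ± 0.27 (SD, n = 3). The log2 change was 1.42 ± 0.35 (SE; edgeR adjusted p = 0.118), and those of its neighbours were 0.83 and 1.54. The ratio to the neighbours was 0.804 ± 0.22 in WT and 0.980 ± 0.14 in S34F.

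The other introns at the ends of the range had no adjusted p under 0.05 either, and all but 1 had neighbours whose log2 changes had the same sign. The intron chr17:30664974-30665226 had 5.30 ± 0.69 RPM in WT and 3.14 ± 0.57 in S34F (SD, n = 3), a log2 change of -0.78 ± 0.22 (SE). Its neighbours stood at -0.71 and -0.50. The intron chr21:34963514-34968036 had 2.32 ± 0.75 and 4.46 ± 1.3 RPM, a log2 change of 0.92 ± 0.27 (SE), with neighbours at 0.61 and 0.73. The introns chr8:56723657-56725598 (-0.68), chr1:243364138-243375187 (-0.66) and chr17:43197822-43198268 (0.90) were of this kind. The remaining intron of the 4 highest, chr2:38709095-38709247, had between 5 and 27 reads in each library, overlapping groups and no tested neighbour. Its log2 change of 0.91 was 0.00 with multi-mapped reads added.

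Over the 108 AT-AC introns whose neighbours on both sides were also tested, the log2 change had the sign of both neighbours in 71 introns (65.7%) and the opposite sign to both in 7 (6.48%). For GT-AG introns these shares were 70.1% and 8.45%. The correlation across introns between an AT-AC intron's change and the mean of its neighbours' changes was r = 0.88 (n = 108) and 0.84 for GT-AG introns (n = 83278). All these points come from the same 6 libraries, introns are not independent replicates, and no test was made of this correlation. Of the 15 AT-AC introns with an unadjusted p under 0.05, 14 had tested neighbours on both sides, and all 14 had the sign of both neighbours, as did 93.8% of 11359 GT-AG introns chosen in the same way.

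**Figure D3:**
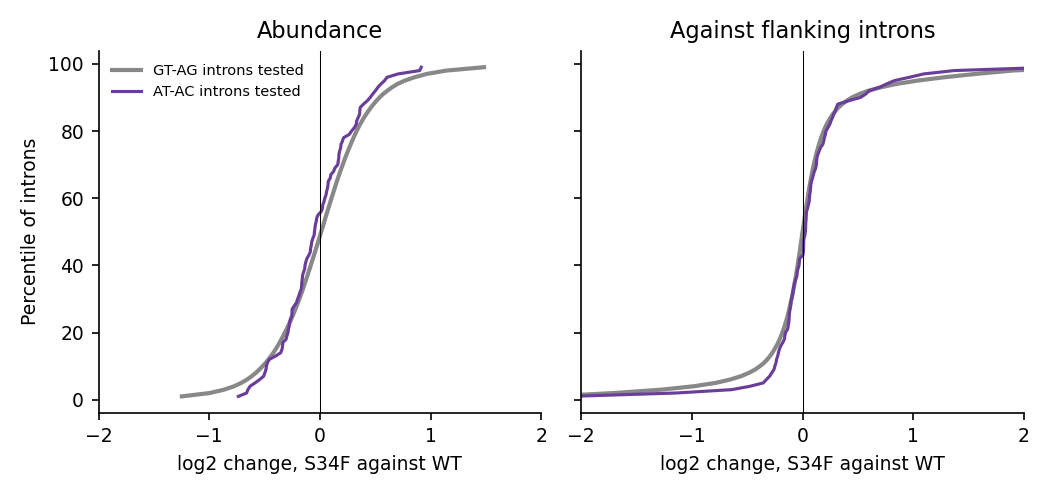
Percentile curves of the log2 change between S34F and WT for AT-AC introns (purple) and GT-AG introns (grey), in abundance (left, 142 AT-AC introns) and in the ratio to flanking introns (right, 134 AT-AC introns). The axes are cut at -2 and 2, and the curves of the classes run close together, with AT-AC medians of -0.05 and 0.03.

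To separate the removal of an intron from the level of its transcript, each intron was set against the annotated introns that flank it across exons of at most 500 nt. Each flank was the most-read such intron on its side and was not matched by transcript. In the pooled libraries the median AT-AC intron had 0.896 times the reads of the mean of its flanks (quartiles 0.580 and 1.08, 136 introns whose flanks averaged at least 100 reads). The median GT-AG intron had 0.906 times (104504 introns). An AT-AC intron had fewer reads than both its flanks in 44.1% of cases and more than both in 22.8%, and for GT-AG introns these shares were 40.8% and 21.2%. By library, the median log2 ratio of AT-AC introns was -0.24, -0.21 and -0.16 in WT and -0.14, -0.22 and -0.20 in S34F, so the groups overlapped.

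An intron entered the test of this ratio with at least 20 reads in every library on it and its flanks together. Of its own it needed only 1 read over the 6 libraries, so some introns tested had too few for a call. The test has an intercept for each library, which takes up depth and any transcript level that the intron shares with its flanks. In this test 0 of 134 AT-AC introns were called at an edgeR adjusted p under 0.05. Of all 105247 introns tested 1.01% were called. DESeq2 called 0 AT-AC introns and 0.168% of all introns, and limma on log2 odds called no intron at all. At an unadjusted p under 0.05 in edgeR, 6 AT-AC introns passed, 5 up and 1 down, which is 4.48% against 9.13% of all introns. The lowest adjusted p of an AT-AC intron was 0.341. The median log2 change of the ratio was 0.03 for AT-AC introns and 0.00 for all, and the interval of ± 2 SE lay within ± 1 in 105 of the 134 introns (78.4%, against 75.7% of all).

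The ratio of the most-read intron, at chr12:7076412-7076838, was 0.915, 0.897 and 0.914 in WT and 0.909, 0.861 and 0.865 in S34F. The groups overlapped, and its log2 change of -0.05 ± 0.04 (SE; edgeR adjusted p = 0.818) had a smaller SE than its change in abundance. The intron chr7:30661117-30661932 had ratios of 1.24, 1.27 and 1.27 in WT and 1.34, 1.29 and 1.39 in S34F. These groups did not overlap, and the log2 change of 0.11 ± 0.06 (SE) had an edgeR adjusted p of 0.619.

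The intron chrX:122744815-122745290 was among the 6 with an unadjusted p under 0.05. Its ratio was 0.733, 0.860 and 0.956 in WT and 1.08, 1.00 and 1.02 in S34F, with every S34F library above every WT library. The log2 change of the ratio was 0.28 ± 0.11 (SE; edgeR adjusted p = 0.377). Its own abundance had a log2 change of -0.59 and that of its flanks -0.87 and -0.84, none past the threshold. The ends of the range in this test were mostly the less-used junctions of donors with several acceptors. The 4 lowest (chr12:57135601-57136770, chr19:13260419-13260541, chr15:51240357-51242020 and chr7:129683721-129688872) had 1 to 5 reads in all, and 3 of the 4 highest (chr3:160099515-160102351, chr2:220091658-220092491 and chr11:1006620-1008013) had 1 to 3, too few for a fold change. The remaining one, chr19:19312857-19313139, is described with its donor.

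AT-AC introns were then compared with GT-AG introns in the alternatives used at the same splice sites, over introns with at least 100 reads. This class comparison is a description made after the data were seen, with no test. The 131 AT-AC introns of that depth had a median of 498 reads and the 101172 GT-AG introns 482. Another acceptor joined to the same donor was read for 16 AT-AC introns (12.2%), against 68.4% of GT-AG introns. Another donor joined to the same acceptor was read for 2 AT-AC introns (1.53%), against 63.4%. Other acceptors that together held at least 1% of the reads of the shared donor were found for 7.63% of AT-AC introns and 36.6% of GT-AG introns.

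The way junctions are listed bears on this comparison. An AT donor can appear in these tables only with an AC acceptor or in an annotated junction without a known motif, because unannotated junctions without such a motif are not in the tables. Counting only annotated alternatives with a known motif, the shares were 9.92% of AT-AC and 22.0% of GT-AG introns for another acceptor, and 1.53% and 22.5% for another donor. The 3 AT-AC introns that this count leaves out, chr11:61068405-61069728, chrX:122744815-122745290 and chr14:54947675-54948126, had an annotated alternative without a known motif. Unannotated AT-AC junctions numbered 832 with 797 reads in all, and 801 of them had at most 2 reads. None of the 832 used the donor of an annotated AT-AC intron, and 1 used the acceptor of one.

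The share of reads on alternative junctions was then taken by library. For a second acceptor it averaged between 1.27% and 1.42% over the 131 AT-AC introns in each library, with 1.33 ± 0.049% in WT and 1.38 ± 0.038% in S34F (SD, n = 3), and the groups overlapped. Over the 65 AT-AC introns with at least 500 reads it was 1.34 ± 0.065% in WT and 1.15 ± 0.067% in S34F. This was the opposite direction, and the groups did not overlap. Among those 65 is chr21:34963514-34968036, described below, whose near acceptor held 46.0 ± 4.2% of its pair in WT and 33.6 ± 5.6% in S34F. A mean over so few introns can move with 1 such intron, and no mean was taken without it. With a minimum of 20 reads the AT-AC share was 2.98 ± 0.13% and 3.02 ± 0.12%. For GT-AG introns the share was 5.14 ± 0.15% and 5.38 ± 0.11% with at least 100 reads, and 2.29 ± 0.10% and 2.47 ± 0.084% with at least 500. For a second donor the AT-AC share ran from 0.0419% to 0.126% between libraries, with 0.0844 ± 0.036% in WT and 0.0813 ± 0.043% in S34F (SD, n = 3), against 5.01 ± 0.14% and 5.21 ± 0.094% for GT-AG introns. In every library the AT-AC mean lay below the GT-AG mean.

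**Figure D4:**
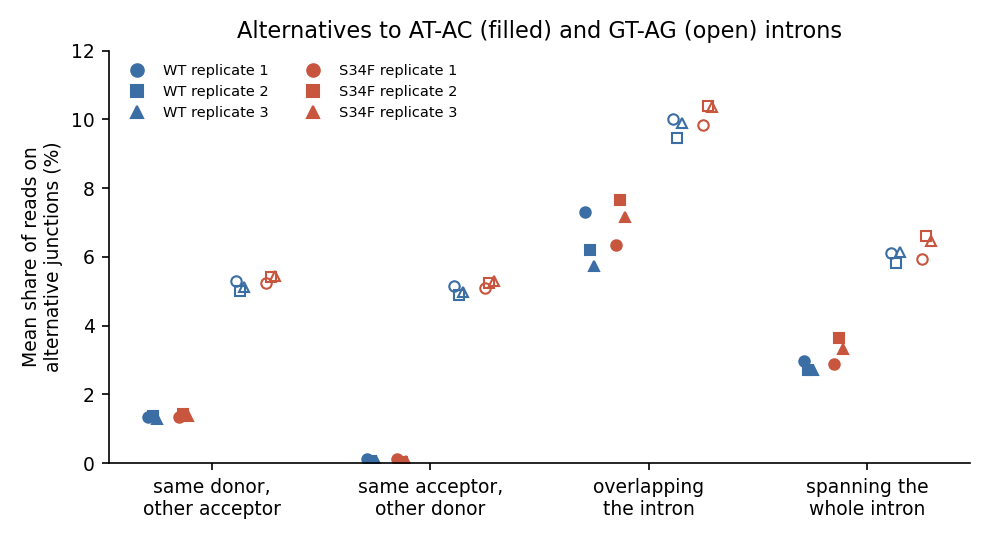
Mean share of reads on alternative junctions, in percent, by library, for 131 AT-AC introns (filled) and 101172 GT-AG introns (open). AT-AC introns lie below GT-AG introns in all 4 kinds of alternative in every library, by the widest factor for another donor at the same acceptor.

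Junctions that overlap an intron on the same strand included those sharing 1 of its ends, but not those without a known motif. They differed less in frequency between the classes. At least 1 was read for 114 of the 131 AT-AC introns (87.0%) and for 92.7% of GT-AG introns, and they held at least 1% of the reads for 55.7% and 63.6%. Junctions spanning the whole intron, as in exon skipping, were read for 74.8% and 87.1%. Counted once for each intron it overlaps, the overlapping junctions of the 131 AT-AC introns numbered 589, of which 556 were GT-AG and 18 were AT-AC. The 105 annotated ones held 30157 of their 31933 reads, counted in the same way. Most of these, 24965 reads, were on 17 annotated GT-AG junctions that lay inside 11 of the AT-AC introns. The mean share of reads on overlapping junctions was 6.42 ± 0.82% in WT and 7.05 ± 0.66% in S34F for AT-AC introns (SD, n = 3), and 9.79 ± 0.29% and 10.2 ± 0.31% for GT-AG introns.

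Some GT-AG junctions replaced an AT-AC intron nearly end for end. In all, 38 GT-AG junctions at 29 of the 131 introns had both ends within 100 nt of the AT-AC ends, with 361 reads together, and 23 of them had at most 2 reads. The most-read was chr1:62189445-62190573, annotated, whose donor lies 55 nt and acceptor 14 nt downstream of those of the AT-AC intron chr1:62189459-62190628. It had 23, 13 and 8 reads in WT and 24, 15 and 35 in S34F, beside 216, 115 and 112 and then 151, 114 and 122 on the AT-AC intron. A further annotated GT-AG junction with the same acceptor, chr1:62189445-62190591, had 21, 6 and 8 reads in WT and 7, 8 and 23 in S34F. Each of these GT-AG junctions had fewer reads than the AT-AC intron in every library. At chr3:128525319-128526393 a GT-AG junction with ends 26 and 8 nt upstream (chr3:128525293-128526385) had 18.6% of the reads of the pair.

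The acceptors read with the same AT-AC donor lay from 2 to 8649 nt apart. The 260 introns used 245 distinct donors, of which 19 were read with another acceptor, and 258 distinct acceptors, of which 4 were read with another donor. These donors gave 28 pairs of acceptors, 17 of them between AT-AC junctions and 11 with a junction whose motif is not among the known ones, and all 28 alternatives were annotated. In 16 pairs the acceptors lay 2 to 27 nt apart, in 8 over 1000 nt and in 4 in between. These are counts of pairs, not of donors. A donor with several acceptors, such as chr21:34968036, gave several pairs, and not every pair includes the main acceptor.

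The donor at chr21:34968036 on the minus strand had the most even use. Its far acceptor ended the 4523 nt intron chr21:34963514-34968036, and its near acceptor ended the 116 nt intron chr21:34967921-34968036. The near acceptor held 41.2%, 48.8% and 48.1% of the reads of the pair in WT and 39.7%, 32.3% and 28.7% in S34F. All 3 S34F libraries lay below the WT libraries, at 33.6 ± 5.6% against 46.0 ± 4.2% (SD, n = 3). The log2 change in its odds among all junctions of that donor was -0.71 ± 0.37 (SE) and did not pass the test (edgeR adjusted p = 0.295). A further acceptor 4 nt upstream of the far one, in a junction without a known motif, had between 5 and 11 reads in each library.

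At the donor chrX:122745290, an acceptor 6 nt downstream of the main one, in a junction without a known motif, held 31.1%, 20.5% and 18.0% of the pair in WT and 22.0%, 26.9% and 25.7% in S34F. The S34F values lay inside the WT range, and the main intron's odds had a log2 change of -0.15 ± 0.38 (SE; edgeR adjusted p = 0.877). At the donor chr19:19313139 the acceptor of chr19:19312857-19313139, 6 nt upstream of the main one, held 9.52%, 6.25% and 8.57% in WT and 15.6%, 12.2% and 11.9% in S34F. These groups did not overlap. They rest on 6, 3 and 3 reads of the less-used acceptor in WT and 7, 9 and 12 in S34F. The log2 change of 0.71 ± 0.58 (SE) had an edgeR adjusted p of 0.546. In the ratio to flanking introns this junction had a log2 change of 1.25 ± 0.48 (SE; edgeR adjusted p = 0.341).

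The donor chr12:95663965 had a second acceptor 4 nt downstream of the main one. It held 5.17%, 5.80% and 3.33% of the pair in WT and 6.78%, 15.4% and 10.2% in S34F, again without overlap. The shares rest on 3, 4 and 2 reads of that acceptor in WT and 4, 6 and 13 in S34F. The log2 change was 1.15 ± 0.64 (SE; edgeR adjusted p = 0.328), and 0.43 with multi-mapped reads added. In 3 further pairs the groups overlapped: the acceptor 1600 nt downstream of chr17:42758012-42759370 held 8.09 ± 1.9% in WT and 6.86 ± 2.9% in S34F. The acceptor 3 nt upstream of chr14:54947675-54948126 held 9.27 ± 2.1% and 7.34 ± 1.1%. The acceptor 8649 nt upstream of chr13:113873363-113882289 held 2.36 ± 0.58% and 2.67 ± 2.1% (all SD, n = 3).

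At 3 donors an annotated junction without a known motif was the main form and the AT-AC junction the rare one. The AT-AC intron chr2:38809123-38810982 had 12 reads against 1010 for the acceptor 188 nt upstream, which held 99.1 ± 0.37% of the pair in WT and 98.3 ± 0.77% in S34F (SD, n = 3). The groups overlapped, and the log2 change in the odds of the AT-AC intron was 0.85 ± 0.87 (SE; edgeR adjusted p = 0.649). The AT-AC intron chr12:111079433-111082777 had 7 reads against 63, and chr15:55612609-55613497 had 1 read against 110. Other junctions with a more-read partner at the same site (chr3:194369483-194371609, chr3:160099361-160102351, chr7:129680942-129683226, chr17:42758021-42759370, chr21:34963535-34968036 and chr1:183602299-183604651) had between 2 and 17 reads each.

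**Figure D5:**
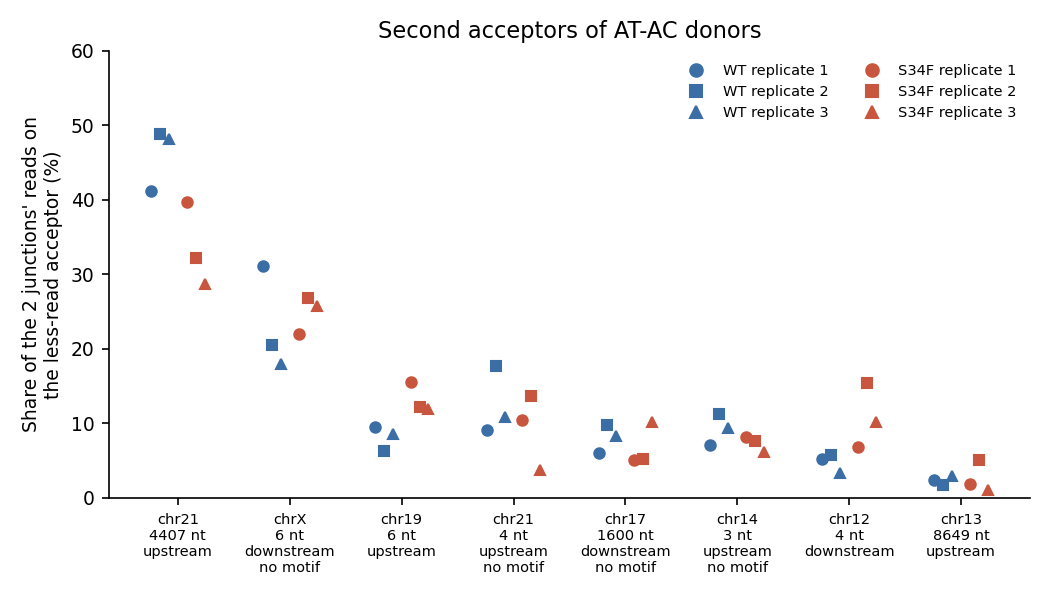
Share of the reads of a pair of acceptors, in percent, on the less-read acceptor of an AT-AC donor, by library, labelled by chromosome and by the distance from the main acceptor. The S34F points lie below the WT points for the 4407 nt pair on chr21 and above them for chr19 and chr12, and overlap them in the other pairs.

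In the test of acceptor choice a junction was called at an adjusted p under 0.05 together with a difference of at least 10 percentage points. Of the AT-AC junctions 16 had enough reads, which were at least 20 at the donor in every library and 10 on each side, and 0 were called by edgeR, against 2.11% of the 51542 junctions tested. None of the 16 had an unadjusted p under 0.05, against 19.9% of all. In this test limma on log2 odds called 0 of the 51542 junctions, so its 0 among AT-AC junctions carries no information about them. In the test of donor choice 4 AT-AC junctions entered. Again 0 were called by edgeR, against 0.934% of 48279, and limma called 0 of all 48279. Of the 4, 0 had an unadjusted p under 0.05, against 17.3%. The pair with more reads on its less-used donor joined the acceptor chr15:42521019 to donors 652 nt apart. The upstream donor held 14.7%, 5.21% and 8.16% of the reads in WT and 14.7%, 1.54% and 9.36% in S34F, which overlapped (edgeR adjusted p = 0.968).

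Competition with GT-AG junctions was read from the share of an intron in all reads that overlap it. Reads of junctions without a known motif, which have no strand, were not among them. Of 75 AT-AC introns tested 0 were called by edgeR, against 1.17% of 69383 introns, under the same rule with 10 percentage points. At an unadjusted p under 0.05 edgeR passed 8 AT-AC introns, 3 up and 5 down, or 10.7% against 17% of all. Here too limma on log2 odds called 0 of all 69383 introns. The median log2 change was -0.06 for AT-AC introns and -0.07 for all.

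The largest difference in this test was at chr16:75574073-75575247 on the minus strand. The intron held 64.4%, 71.8% and 82.5% of the overlapping reads in WT and 90.0%, 93.9% and 93.2% in S34F, with every S34F library above every WT library. The means were 72.9 ± 9.1% and 92.4 ± 2.1% (SD, n = 3), and the log2 change in odds of 2.15 ± 0.64 (SE) had an edgeR adjusted p of 0.0794. Its own reads differed little, at 29, 28 and 33 in WT and 27, 31 and 41 in S34F. The most-read competitor, the unannotated GT-AG junction chr16:75574555-75576499, had 10, 8 and 2 reads in WT and 0, 0 and 1 in S34F.

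The opposite direction was seen at chr8:56723657-56725598, where the AT-AC intron held 92.5%, 92.4% and 100% in WT and 88.2%, 82.6% and 73.0% in S34F. The S34F libraries again lay apart from WT, and the log2 change was -2.01 ± 0.73 (SE; edgeR adjusted p = 0.152), or -2.61 against spanning junctions only. The annotated GT-AG junction spanning it, chr8:56717596-56725613, had 2, 1 and 0 reads in WT and 3, 1 and 11 in S34F. For chr12:77222271-77235761 the shares were 60.1 ± 15% in WT and 76.7 ± 11% in S34F (edgeR adjusted p = 0.410), and for chr3:160099513-160102351 they were 39.9 ± 17% and 24.9 ± 10% (edgeR adjusted p = 0.448; SD, n = 3). Both pairs of groups overlapped.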

How the data were processed

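Each library came with 1 deposited junction table without a header, in the layout of STAR's junction output; the aligner and the build hg19 are named in the submitters' processing notes, and version, annotation and filters are not given in the sources used here. The values used are the raw counts of uniquely mapped reads per junction that the authors deposited, with multi-mapped counts as an alternative. Junctions were matched between tables by position, and a junction not listed counted as 0.

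Junction abundance was tested with edgeR 4.0.16 (quasi-likelihood, TMM). Ratios to flanking introns, acceptor choice, donor choice and overlap were tested with 2 counts per library and an intercept per library. Abundance, flank and overlap tests ran over annotated junctions with a known motif, for the flank test those with both flanks. Acceptor and donor choice were tested over all junctions with a known motif. Each test took the junctions that passed its read filter, with Benjamini-Hochberg adjustment over them. DESeq2 1.42.0 and limma 3.58.1 served as alternatives, with other filters, multi-mapped reads, a replicate block and each library left out. Scripts were tested on simulated data. Junctions without a known motif have no strand in the tables. They entered only as competitors at a shared donor or acceptor, and not among the overlapping or spanning junctions. Replicates differed beyond sampling noise.

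The AT-AC introns and the lists were chosen with earlier results of these data known. Named introns are the 10 most-read, the 4 highest and 4 lowest log2 changes in the abundance and flank tests, those with another junction holding at least 1% of a shared site and 20 reads, and the 4 largest differences in the overlap test. The GT-AG junctions near AT-AC introns were named after their values were seen. Markers of the cell line and spliceosome genes were not analysed here, for want of gene names.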

Additional observations from a re-analysis of the deposited data

How the results depend on the processing

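The difference in AT-AC reads per 1000000 annotated reads (-12.0) ran from -51.7 to 25.7 when 1 library was left out; it turned to 1.21 without WT replicate 3 and to 25.7 without S34F replicate 2. It was -20.5 with multi-mapped reads, -11.9 against GT-AG reads only and -4.18 without the most-read intron. The count of AT-AC introns called for abundance was 0 to 1 with each library left out (1 without S34F replicate 2), 1 with DESeq2 and 1 without TMM. Of all junctions, 0% to 0.534% were called with a library left out, 1.15% with DESeq2 and 0.348% without TMM. With no filter on low counts the AT-AC count was 5 of 242 (2.07%), against 2.35% of all junctions. The intron called without S34F replicate 2, with DESeq2 and without TMM was chr14:50131393-50131824. Without a filter the calls added chr17:30664974-30665226, chr19:18856771-18857862, chr21:34963514-34968036 and chr7:150720597-150720773. The causes were not tested. The flank, acceptor, donor and overlap tests called 0 AT-AC introns under every alternative run. Of all junctions, these tests called 1.24%, 4.14%, 2.76% and 2.5% without WT replicate 1. Without S34F replicate 3 they called 0.421%, 0.178%, 0.0102% and 0.0501%, and with limma 0. Where so few junctions were called at all, a 0 among AT-AC introns carries little information. With the replicate block, all 5 tests called 0 AT-AC introns, against 0.0403% (abundance) to 1.79% (acceptor choice) of all junctions. The difference in AT-AC reads with the block was -12.0. The shared numbers did not pair the libraries (correlations of deviations -0.18, -0.14 and -0.02), and no library correlated best with its own number. Of 624 values of named introns over the alternatives 617 stayed on their side of the threshold, 7 became significant and 0 significant changes turned sign; 36 others changed sign. At a minimum of 500 reads, chosen after seeing the data, junctions overlapping and spanning AT-AC introns were read for 92.3% and 86.2% of them. Depth limits the tests of acceptor and donor choice, for which 16 and 4 AT-AC junctions had enough reads.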

Other observations

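Unannotated AT-AC junctions, which enter no comparison above, had 5.19, 4.77 and 5.37 RPM in the WT libraries and 6.82, 5.64 and 4.58 in the S34F libraries. The groups overlapped, and 3 of the 832 junctions had over 20 reads in all.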
